A study of Mus musculus with 8 samples.

Results

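The genes described here are those of cholesterol synthesis and of sterol regulation in mouse male germ cells with and without the ubiquitin-conjugating enzyme HR6B. They were chosen by name as the enzymes that build cholesterol from acetyl-CoA, the proteins that switch that pathway on and off, and a few genes of sterol transport and storage. Of 28 genes on the list, 25 had a probe set annotated to that gene alone, out of 18193 genes measured in this way. Acat2, Soat1 and Nr1h2 were not analysed here. The 25 genes comprised 6 of the mevalonate part of the pathway, 3 of squalene and lanosterol formation, 8 that convert lanosterol to cholesterol, 5 of the SREBP control system, and 3 of transport and sterol sensing.

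RNA was hybridised to 8 Affymetrix Mouse Genome 430 2.0 arrays. There were 2 arrays each of Hr6b-/- round spermatids, Hr6b+/+ round spermatids, Hr6b-/- late spermatocytes and Hr6b+/+ late spermatocytes, from male mice of FVB background aged 4 to 5 weeks. The knockout was present in the whole animal, and knockout males came from Hr6b-/- mothers and Hr6b+/- fathers. Wild type males came from separate crosses between Hr6b+/+ mice of the same backcross generation, set up at the same time. The genotype of a male and that of his parents therefore cannot be told apart. Germ cells were released with collagenase and trypsin and enriched by sedimentation at unit gravity followed by a Percoll gradient. How many mice stood behind each array, and whether replicate arrays came from separate animals, was not given in the sources used here, and the p-values therefore cover no more than the variation among these arrays, part or all of which may be technical. In such bulk preparations, fewer cells of a type and less RNA per cell cannot be told apart.

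Cholesterol is built in the cytosol and endoplasmic reticulum. The mevalonate part of the pathway supplies isoprene units, which are joined to squalene, closed to lanosterol, and then trimmed and rearranged to cholesterol. In most cells the pathway is governed by feedback: when sterols are scarce, SCAP carries the transcription factor SREBP2 to the Golgi for cleavage, and when sterols are plentiful, INSIG proteins hold SCAP back. Germ cells are known to depart from this scheme. They accumulate sterol intermediates downstream of lanosterol demethylase, the meiosis-activating sterols, and rodent spermatogenic cells are known to make a shortened SREBP2 that does not need cleavage.

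Values are given as signals on the linear scale, that is, 2 to the power of the deposited log2 value, and differences as log2 differences with their standard error (SE) from a limma fit to all 8 arrays. A gene was called higher or lower where the Benjamini-Hochberg adjusted p over all 45037 probe sets tested was under 0.05. Each gene is represented by its own probe set of highest mean log2 value, and levels are not compared between genes. Of the 25 genes, 18 had a signal of at least 100 on at least 4 arrays, and Msmo1, Ebp and Dhcr7 were under 100 on every array.

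The targeted gene, Ube2b (the symbol of Hr6b), had signals of 951 and 1061 in Hr6b-/- spermatids, against 4599.5 and 4612 in Hr6b+/+ spermatids, and of 833 and 824 in Hr6b-/- spermatocytes, against 2855 and 3349 in Hr6b+/+ spermatocytes. Between 33.2 and 35.4% of probe sets had a signal of at least 100 on each array, and replicate arrays correlated across probe sets at r of 0.995 to 0.997. Of 17 measured round spermatid markers, 17 were higher in Hr6b+/+ spermatids than in Hr6b+/+ spermatocytes. Sertoli cell transcripts also differed between the preparations: 11 of 17 measured markers were lower in Hr6b+/+ spermatids than in Hr6b+/+ spermatocytes, and their summed signal was 996 to 1080 in Hr6b+/+ spermatids and 5903 to 7500 in Hr6b+/+ spermatocytes. Of the 17 Sertoli cell markers, 7 were under 100 on every array, among them Sox9, Wt1 and Gata4, and the others reached 100 on some array. Of 8 measured Leydig cell markers, 1 was higher, 2 were lower and 5 were not called in Hr6b+/+ spermatids (median log2 difference 0.05). Their summed signal was 2297 to 2409 in Hr6b+/+ spermatids and 4364 to 4700 in Hr6b+/+ spermatocytes. Of these 8 markers, 5 were under 100 on every array, among them Cyp11a1, Hsd3b1 and Hsd17b3, and the others reached 100 on some array.

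The comparison of the stages within one genotype asked which steps of the pathway differ between cells before and after the meiotic divisions. In Hr6b+/+ mice, 8 of the 25 genes were higher and 14 lower in round spermatids than in late spermatocytes, against 26.0% of all probe sets called higher and 27.3% called lower. The median log2 difference was -0.45 for the 25 genes and 0.10 for all probe sets. Most of the 25 genes are brighter than the bulk of probe sets. Of 17597 probe sets at a signal of at least 100 on at least 4 arrays, 5734 were higher and 8792 lower. Their median was -0.34, so the lean of the 25 genes to the lower side is not particular to them. The pathway did not move as 1 block. The squalene synthase Fdft1, the squalene epoxidase Sqle, the lanosterol demethylase Cyp51 and the dehydrogenase Nsdhl were higher in spermatids. In contrast, the lanosterol-forming Lss, most other enzymes after lanosterol, and the SREBP regulators Scap and Insig1 were lower. The median of expressed autosomal probe sets was itself 0.37 lower on the log2 scale in Hr6b+/+ spermatids than in Hr6b+/+ spermatocytes. With arrays scaled to equal medians, 10 of the 25 genes were higher and 11 lower, against 61.3% and 20.8% of all probe sets. Under this scaling 25.3% of all calls were to the lower side, against 51.2% with the deposited scaling. Of the lower genes, Pmvk, Sc5d and Srebf1 lost their call under that scaling. Pmvk and Sc5d also lost it without Hr6b+/+ spermatid replicate 2 (-0.41 and -0.32) or Hr6b+/+ spermatocyte replicate 2 (-0.39 and -0.34).

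**Figure D1:**
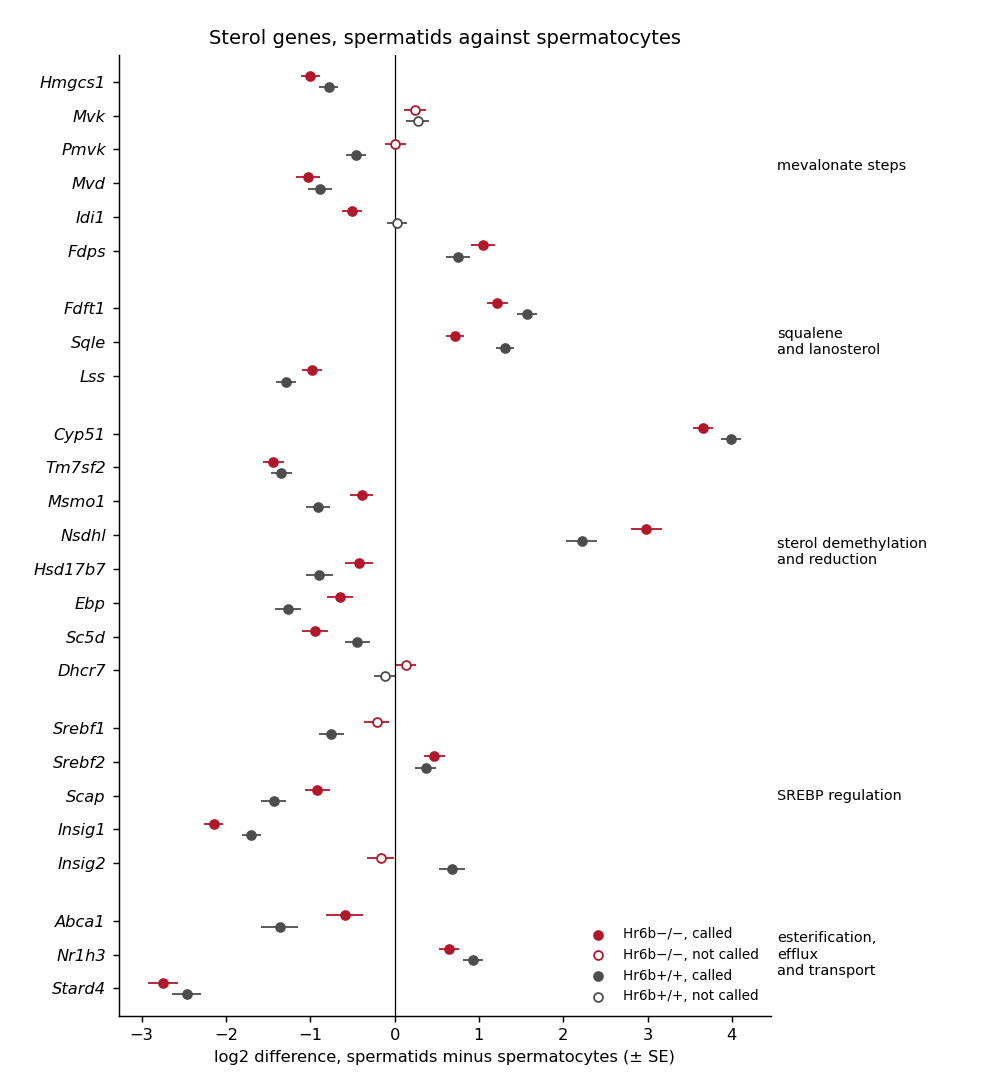
Log2 difference, round spermatids minus late spermatocytes, for each of the 25 genes grouped by pathway step, in Hr6b-/- mice (red) and Hr6b+/+ mice (grey). Bars are 1 SE of the fit, filled points were called at an adjusted p under 0.05, and Cyp51 and Nsdhl lie farthest to the right in both genotypes, with Stard4 and Insig1 far to the left.

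The largest difference was that of Cyp51, which encodes lanosterol demethylase, the enzyme that makes the first of the meiosis-activating sterols. Cyp51 had signals of 1454 and 1395 in Hr6b-/- spermatids and 1534 and 1466 in Hr6b+/+ spermatids, against 114 and 112 in Hr6b-/- spermatocytes and 87.6 and 102 in Hr6b+/+ spermatocytes. All 4 spermatid arrays lay far above all 4 spermatocyte arrays, and the genotypes lay close together within each stage. The log2 difference between stages was 3.99 in Hr6b+/+ mice (SE 0.12, adjusted p = 2.11e-09, 15.9-fold) and 3.66 in Hr6b-/- mice (adjusted p = 4.44e-09, 12.6-fold). Of the 3 Cyp51 probe sets, only that used here was called between the stages of Hr6b+/+ mice, the others being under 100 on every array. In Hr6b-/- mice 1 of the others was called higher as well. Over the alternative analyses the difference ran from 1.37 to 4.435 in Hr6b+/+ mice and from 1.36 to 4.35 in Hr6b-/- mice.

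Nsdhl, an X-linked gene whose product takes part in the removal of methyl groups from lanosterol-derived sterols, was higher in spermatids as well. Its signals were 337 and 413 in Hr6b-/- spermatids and 247 and 212 in Hr6b+/+ spermatids, against 51.6 and 42.9 in Hr6b-/- spermatocytes and 41.8 and 57.8 in Hr6b+/+ spermatocytes. The stages did not overlap in either genotype, and both knockout spermatid arrays lay above both wild type spermatid arrays. The log2 difference between stages was 2.22 in Hr6b+/+ mice (SE 0.18, adjusted p = 1.86e-06) and 2.99 in Hr6b-/- mice (adjusted p = 1.68e-07). X-linked probe sets as a whole leaned to the higher side in spermatids. In Hr6b+/+ mice 36.4% of them were called higher and 9.94% lower, against 27.1% and 31.2% of autosomal probe sets. In Hr6b-/- mice the shares were 50% and 5.77%, against 33.9% and 33.1%.

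The promoters of Cyp51, Nsdhl and the regulator Srebf2 are shown as a selection. These genes were called higher in spermatids while most of their pathway partners were lower. Insig2 was also called higher by the probe set used here and had motif matches, but is not shown. Each run is the 250 bases before the RefSeq start of the gene (GRCm38.p6), written 5′ to 3′ on the strand of the gene. Capitals mark exact matches, on either strand, to the CCAAT box (CCAAT), the GC box (GGGCGG) and the core of the cyclic AMP response element (CRE core, TGACG, which is also contained in the full element TGACGTCA).
Cyp51, chr5:4104698-4104947, minus strand: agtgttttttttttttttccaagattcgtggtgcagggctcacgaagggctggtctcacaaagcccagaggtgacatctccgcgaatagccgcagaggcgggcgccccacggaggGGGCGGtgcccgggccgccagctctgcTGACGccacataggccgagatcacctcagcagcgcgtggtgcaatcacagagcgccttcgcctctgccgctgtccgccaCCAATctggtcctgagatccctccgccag
Nsdhl, chrX:72918271-72918520, plus strand: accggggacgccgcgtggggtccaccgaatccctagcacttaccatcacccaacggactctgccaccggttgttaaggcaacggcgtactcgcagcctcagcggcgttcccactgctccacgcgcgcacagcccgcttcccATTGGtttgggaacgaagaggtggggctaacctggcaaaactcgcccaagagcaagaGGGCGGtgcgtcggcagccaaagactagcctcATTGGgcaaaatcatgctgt
Srebf2, chr15:82147019-82147268, plus strand: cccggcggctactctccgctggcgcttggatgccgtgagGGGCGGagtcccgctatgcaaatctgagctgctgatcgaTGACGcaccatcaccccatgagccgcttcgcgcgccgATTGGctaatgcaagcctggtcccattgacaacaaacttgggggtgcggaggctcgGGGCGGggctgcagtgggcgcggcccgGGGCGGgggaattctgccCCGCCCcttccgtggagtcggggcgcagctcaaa

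In these windows Cyp51 carried a CCAAT box 29 bases, a CRE core 108 bases and a GC box 135 bases before the start. Nsdhl carried CCAAT boxes on the opposite strand 20 and 109 bases before the start and a GC box 52 bases before it. Srebf2 carried a CRE core at 172 bases, a CCAAT box on the opposite strand at 135 bases and GC boxes at 34, 52, 79 and 211 bases. Over all 27025 genes of the table, counted as having a motif where any of their 32851 windows held it, 37.5% had a CCAAT box, 35.4% a GC box, 19.8% the CRE core, 1.77% the full element TGACGTCA and 1.22% the sterol response element searched as TCACNCCAC. Counted in the same way, of 24 listed genes with a promoter window, 19 held a CCAAT box, 20 a GC box, 8 the CRE core, none the full element, and 1, Hmgcs1, the sterol response element. Among the genes called higher in Hr6b+/+ spermatids that had a window, 4 of 5 held a CCAAT box and 3 of 5 the CRE core. Among those called lower, 11 of 13 held a CCAAT box and 5 of 13 the CRE core. Insig2 is counted as higher and held both motifs, but its probe sets disagreed on the stage direction, as described further on. Fdps, Fdft1 and Sqle, also called higher, had no window. A match describes the letters in the window and is not evidence of binding.

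Of the 6 mevalonate genes, 3 were lower, 1 was higher and 2 were not called in Hr6b+/+ spermatids. With arrays scaled to equal medians 2 were lower and 3 higher, since Pmvk lost its call and Mvk and Idi1 gained one. Hmgcs1, the HMG-CoA synthase, had signals of 711 and 644 in Hr6b+/+ spermatids, against 1119.8 and 1209 in Hr6b+/+ spermatocytes. Its log2 difference was -0.78 (adjusted p = 0.000186). Mvd, the decarboxylase that makes isopentenyl diphosphate, was lower by a log2 difference of -0.88, and the kinase Pmvk by -0.45. Fdps, which joins isoprene units to farnesyl diphosphate, was the gene called higher. It had signals of 1353 and 1457 in Hr6b-/- spermatids and 1186 and 1142 in Hr6b+/+ spermatids, against 729 and 629 in Hr6b-/- spermatocytes and 611 and 777 in Hr6b+/+ spermatocytes, so that the stages did not overlap in either genotype. Mevalonate kinase, Mvk (log2 difference 0.27, adjusted p = 0.117), and the isomerase Idi1 (0.03, adjusted p = 0.833) were not called in Hr6b+/+ mice.

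Of the 3 genes from farnesyl diphosphate to lanosterol, 2 were higher in spermatids. Fdft1, which encodes squalene synthase, had signals of 10195 and 11095 in Hr6b-/- spermatids and 12389 and 11688 in Hr6b+/+ spermatids, against 4818 and 4344 in Hr6b-/- spermatocytes and 4325 and 3811 in Hr6b+/+ spermatocytes. Every spermatid array was above every spermatocyte array, and the log2 difference was 1.57 in Hr6b+/+ mice (SE 0.12, adjusted p = 1.34e-06) and 1.22 in Hr6b-/- mice. Sqle, the squalene epoxidase and a known rate-controlling step, was higher by 1.31 in Hr6b+/+ mice (adjusted p = 1.87e-06) and by 0.72 in Hr6b-/- mice. Lss, which closes squalene epoxide to lanosterol, ran the other way with a log2 difference of -1.29 in Hr6b+/+ mice (adjusted p = 4.70e-06).

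Of the 8 enzymes after lanosterol, Cyp51 and Nsdhl were higher, 5 were lower and Dhcr7 was not called. Tm7sf2, a sterol reductase acting directly after Cyp51, had signals of 73.8 and 68.3 in Hr6b-/- spermatids and 81.5 and 93.5 in Hr6b+/+ spermatids, against 208 and 177 in Hr6b-/- spermatocytes and 221 and 222 in Hr6b+/+ spermatocytes. The spermatid arrays were all below the spermatocyte arrays, with a log2 difference of -1.34 in Hr6b+/+ mice (SE 0.13, adjusted p = 6.57e-06) and -1.44 in Hr6b-/- mice. The isomerase Ebp (-1.26), the methylsterol oxidase Msmo1 (-0.91), the keto-sterol reductase Hsd17b7 (-0.89) and the desaturase Sc5d (-0.44) were lower in Hr6b+/+ spermatids too, Ebp and Msmo1 at signals under 100 throughout. Dhcr7, the last reductase of the pathway, stayed between 37.9 and 46.5 on all 8 arrays.

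**Figure D2:**
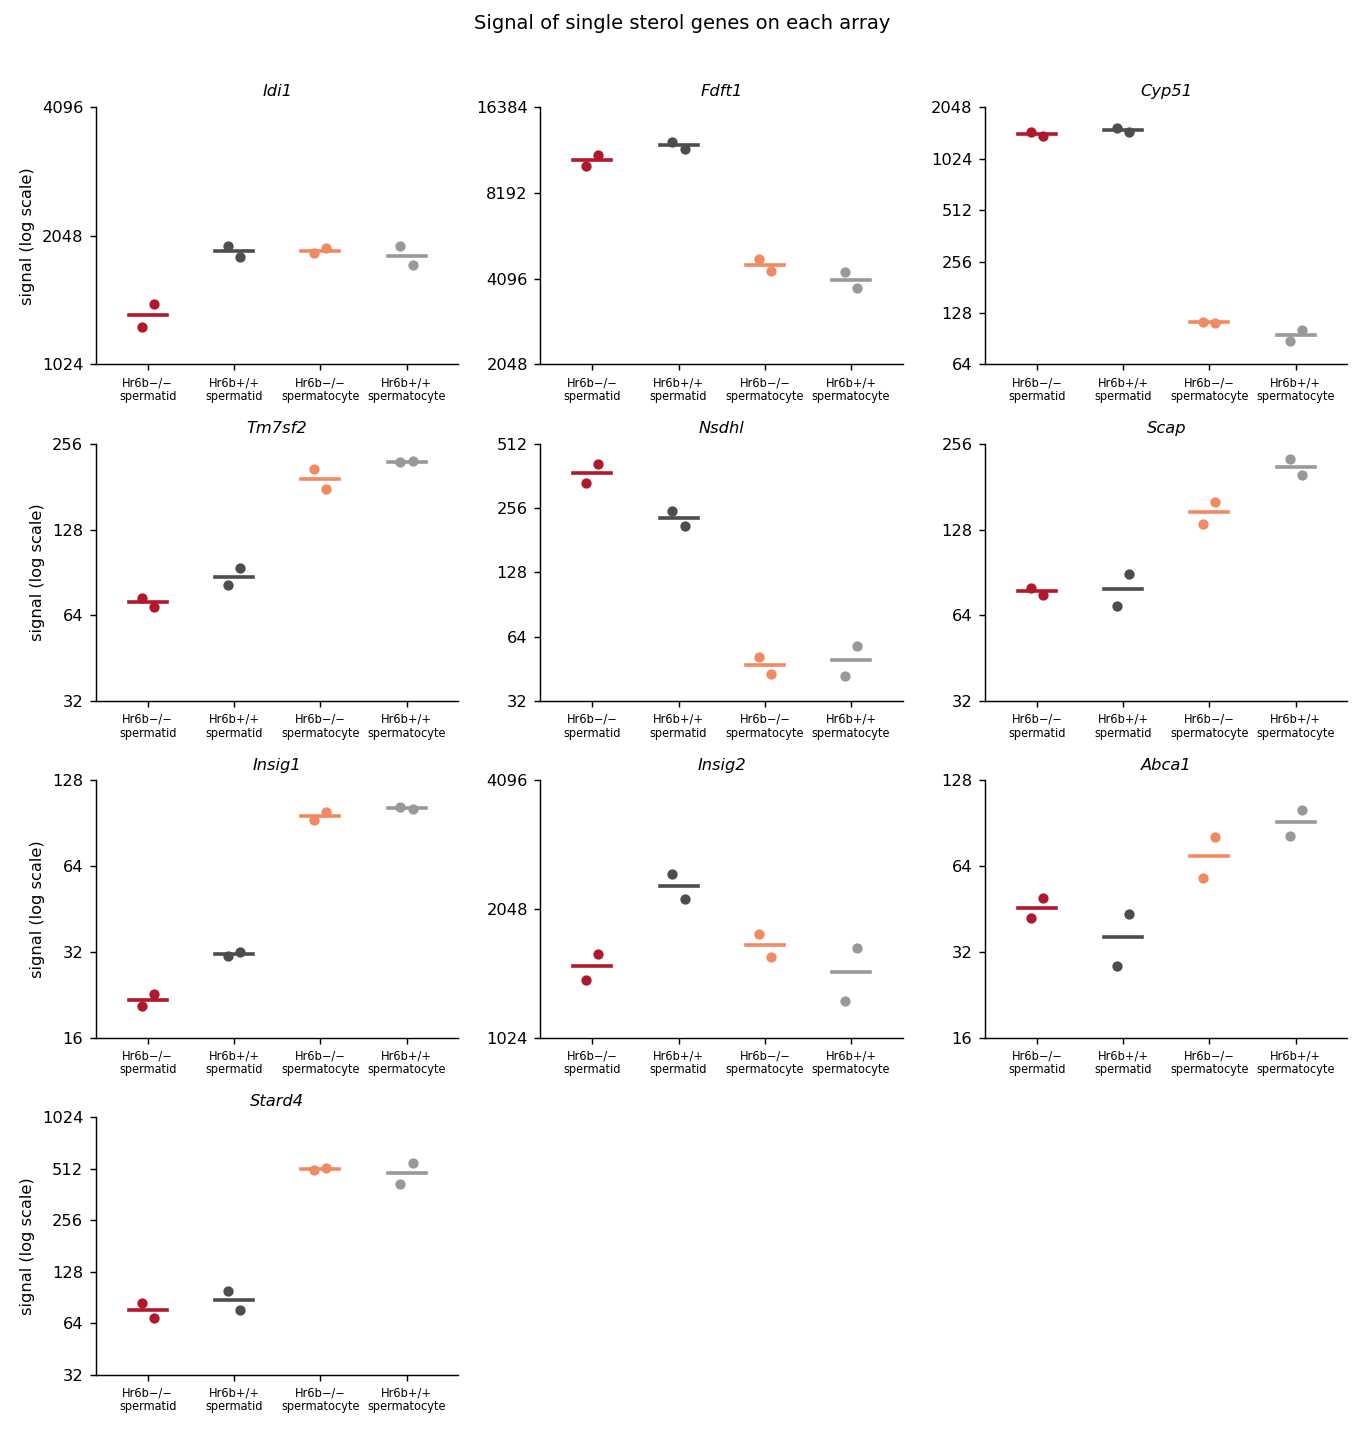
Signal (log axis) of 10 genes on each of the 8 arrays, in the order Hr6b-/- spermatids, Hr6b+/+ spermatids, Hr6b-/- spermatocytes and Hr6b+/+ spermatocytes, each point being 1 array and each line the group mean. Cyp51 ran from 1395 to 1534 on the spermatid arrays and from 87.6 to 114 on the spermatocyte arrays, and Insig1 lay below 33 on every spermatid array.

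The control genes were split as well. Scap, the escort of SREBP, had signals of 80.1 and 75.5 in Hr6b-/- spermatids and 69.1 and 89.2 in Hr6b+/+ spermatids, against 134 and 160.2 in Hr6b-/- spermatocytes and 227 and 199 in Hr6b+/+ spermatocytes. Its stages did not overlap, with a log2 difference of -1.44 in Hr6b+/+ mice (SE 0.15, adjusted p = 1.56e-05) and -0.92 in Hr6b-/- mice. Insig1, a retention factor for SCAP and itself a classical SREBP target, had signals of 20.7 and 22.8 in Hr6b-/- spermatids and 31.0 and 32.1 in Hr6b+/+ spermatids, against 92.7 and 99.6 in Hr6b-/- spermatocytes and 103 and 101 in Hr6b+/+ spermatocytes. It was lower in spermatids by a log2 difference of -1.70 in Hr6b+/+ mice (adjusted p = 3.71e-07) and -2.14 in Hr6b-/- mice. Srebf2, the gene of SREBP2, was higher by 0.37 in Hr6b+/+ spermatids (adjusted p = 0.0298) and by 0.47 in Hr6b-/- spermatids (adjusted p = 0.00765), and Srebf1 was lower by a log2 difference of -0.75 in Hr6b+/+ spermatids (adjusted p = 0.00129). The Srebf2 call was lost in Hr6b+/+ mice without spermatid replicate 1 (0.35), spermatid replicate 2 (0.39) or spermatocyte replicate 2 (0.30), and in Hr6b-/- mice without spermatid replicate 1 (0.35) or spermatocyte replicate 1 (0.42).

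In transport and sensing, Stard4, which moves cholesterol between membranes, had signals of 83.7 and 68.3 in Hr6b-/- spermatids and 98.1 and 76.7 in Hr6b+/+ spermatids, against 499.6 and 516 in Hr6b-/- spermatocytes and 415 and 552 in Hr6b+/+ spermatocytes. It showed the lowest stage difference of the 25 genes in both genotypes, -2.47 in Hr6b+/+ mice (SE 0.17, adjusted p = 6.28e-07) and -2.75 in Hr6b-/- mice. Abca1, the cholesterol exporter, had signals of 42.2 and 49.5 in Hr6b-/- spermatids and 28.7 and 43.7 in Hr6b+/+ spermatids, against 58.4 and 80.9 in Hr6b-/- spermatocytes and 81.7 and 101 in Hr6b+/+ spermatocytes. For both genes every spermatid array was below every spermatocyte array. The log2 difference of Abca1 was -1.36 in Hr6b+/+ mice (adjusted p = 0.000371) and -0.59 in Hr6b-/- mice (adjusted p = 0.0386), and other probe sets of this gene, described further on, went the other way, 1 in Hr6b+/+ mice and 2 in Hr6b-/- mice. Nr1h3, the sterol-sensing nuclear receptor LXR alpha, was higher by 0.93 in Hr6b+/+ mice and 0.64 in Hr6b-/- mice. Most Sertoli cell markers, and the summed signal but not most markers of Leydig cells, were also lower in the spermatid preparations, as given above, and their part in the lower signals of these genes was not tested.

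In Hr6b-/- mice, measured on different arrays, 7 of the 25 genes were higher and 13 lower in spermatids than in spermatocytes, against 34.2% and 28.7% of all probe sets. Of the 17597 probe sets at a signal of at least 100 on at least 4 arrays, 5375 were higher and 9692 lower. All 7 of the higher genes were also among the 8 called higher in Hr6b+/+ mice, where Insig2 was the additional one. Of the lower genes, 12 were shared, that is 12 of 13 in Hr6b-/- and 12 of 14 in Hr6b+/+ mice. Idi1 was called lower only in Hr6b-/- mice, and Pmvk and Srebf1 only in Hr6b+/+ mice. Over all probe sets, 62.2% of the higher calls in Hr6b-/- mice and 81.8% of those in Hr6b+/+ mice were shared, and 86.2% and 90.7% of the lower calls. The median of expressed autosomal probe sets was 0.61 lower in Hr6b-/- spermatids than in Hr6b-/- spermatocytes. With arrays scaled to equal medians 12 of the 25 genes were higher and 7 lower, against 69.3% and 19.3% of all probe sets. Of all calls 21.8% were then to the lower side, against 45.6% with the deposited scaling. Idi1, Msmo1, Hsd17b7, Ebp, Scap and Abca1 then lost their lower call in Hr6b-/- mice, and the direction of Idi1, Msmo1, Hsd17b7 and Abca1 turned. The weakest lower calls in Hr6b-/- mice also rested on single arrays. That of Msmo1 (-0.39) was lost without any one of the 4 Hr6b-/- arrays, at -0.37 to -0.41. That of Abca1 was lost without spermatid replicate 1 (-0.47), spermatid replicate 2 (-0.70) or spermatocyte replicate 2 (-0.35), and that of Hsd17b7 (-0.42) without spermatid replicate 2 (-0.30), spermatocyte replicate 2 (-0.22) or either Hr6b+/+ spermatid array.

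The comparison of the genotypes within a stage asked which genes differ between Hr6b-/- and Hr6b+/+ cells. In round spermatids, Nsdhl was higher in Hr6b-/- cells and Idi1, Insig1 and Insig2 were lower, 1 higher and 3 lower of 25 genes, against 4.83% of all probe sets called higher and 9.63% called lower. The median log2 difference was -0.01 for the 25 genes and 0.02 for all probe sets. Of the 17597 probe sets at a signal of at least 100 on at least 4 arrays, 1071 were higher and 3666 lower, with a median of -0.15. At an unadjusted p under 0.05 there were 8 of the 25 genes (32%), against 28.2% of all probe sets and 45.3% of those 17597. The 4 called genes were spread over the mevalonate part (Idi1), the steps after lanosterol (Nsdhl) and the SREBP system (Insig1 and Insig2), with none of squalene formation or transport.

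Nsdhl, with the spermatid signals given above, had a log2 difference of 0.70 (SE 0.18, 95% confidence interval 0.30 to 1.11, adjusted p = 0.0281), that is 1.63-fold higher in Hr6b-/- spermatids. It was called under each of 3 other scalings, with log2 differences of 0.77 to 0.91. Nsdhl is X-linked, and X-linked probe sets leaned to the higher side in Hr6b-/- spermatids, with 9.14% called higher and 1.24% lower of 1127, against 5.13% higher and 11.7% lower of 33588 autosomal probe sets. The second X-linked gene of the pathway, Ebp, had signals of 47.3 and 39.0 in Hr6b-/- spermatids and 31.5 and 33.3 in Hr6b+/+ spermatids, a log2 difference of 0.41 that was not called (adjusted p = 0.117).

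Idi1, the isomerase that makes the activated isoprene unit for chain building, had signals of 1249.7 and 1421 in Hr6b-/- spermatids, against 1935 and 1829 in Hr6b+/+ spermatids. Both knockout spermatid arrays were also below the 4 spermatocyte arrays, which lay between 1748 and 1934. The log2 difference in spermatids was -0.50 (SE 0.12, 95% confidence interval -0.76 to -0.23, adjusted p = 0.0211). A second probe set of Idi1, above 100 on every array, gave -0.48 and was not called (adjusted p = 0.0657). Insig1, at the low spermatid signals given above, had a log2 difference of -0.54 (SE 0.11, 95% confidence interval -0.79 to -0.29, adjusted p = 0.0115), and its knockout and wild type spermatid arrays did not overlap.

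Insig2, the other retention factor for SCAP, had signals of 1400.3 and 1610.5 in Hr6b-/- spermatids and 2476 and 2162 in Hr6b+/+ spermatids, against 1794 and 1581 in Hr6b-/- spermatocytes and 1252 and 1664 in Hr6b+/+ spermatocytes. The wild type spermatid arrays were above all others. The log2 difference between genotypes in spermatids was -0.62 (SE 0.16, 95% confidence interval -0.98 to -0.27, adjusted p = 0.0275), and 2 further probe sets of Insig2 were called lower as well, at -0.57 (adjusted p = 0.0138) and -0.63 (adjusted p = 0.00761).

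The other 21 genes were not called in spermatids. Nearest to the threshold were Sqle, with signals of 3157 and 3150.4 in Hr6b-/- spermatids and 4135 and 3904 in Hr6b+/+ spermatids (log2 difference -0.35, adjusted p = 0.0557), and Hmgcs1 (-0.35, adjusted p = 0.0720). For Cyp51 the log2 difference was -0.07, with a 95% confidence interval of -0.34 to 0.19. The intervals of Srebf2 and Scap likewise included 0, with estimates of -0.01 each.

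The 3 lower calls depended on the scaling between arrays. The median of expressed autosomal probe sets was 0.21 lower on the log2 scale in Hr6b-/- than in Hr6b+/+ spermatids. With arrays scaled to equal medians, the log2 difference was -0.29 for Idi1 (adjusted p = 0.106), -0.33 for Insig1 (adjusted p = 0.0645) and -0.42 for Insig2 (adjusted p = 0.0629), none of them called. Under that scaling 4 of the 25 genes were higher and none lower by limma, against 18.8% and 5.02% of all probe sets. The higher genes were Nsdhl, Pmvk, Fdps and Ebp. Of all calls 21.1% were to the lower side, against 66.6% with the deposited scaling. Insig1 was called with cyclic loess (-0.64) and quantile (-0.61) scaling, whereas Idi1 and Insig2 were not. Of the further Insig2 probe sets, the second lost its call with equal medians (-0.36, adjusted p = 0.0563) and the third kept it (-0.42, adjusted p = 0.0389). None of the 4 calls was left without Hr6b-/- replicate 1, Hr6b+/+ replicate 1 or Hr6b+/+ replicate 2 of the spermatids, and 2, Idi1 and Insig1, were left without Hr6b-/- replicate 2. Sertoli cell transcripts moved with genotype too. Of 17 measured markers, 5 (Amhr2, Inha, Aard, Cldn11 and Gstm6) were called higher and none lower in Hr6b-/- spermatids, with 3 to 9 higher and none lower under the other scalings, and with a summed signal of 1537 to 1556 in Hr6b-/- and 996 to 1080 in Hr6b+/+ spermatids. Of 9 macrophage and blood markers, 2 were called higher, with a summed signal of 879 on both Hr6b-/- arrays and 629 to 635 on the Hr6b+/+ arrays. Of 17 late spermiogenesis markers, 4 were called higher and 1 lower in Hr6b-/- spermatids, with 10 higher under equal medians and 8 with cyclic loess, and their summed signal was 269843 to 274814 in Hr6b-/- and 201687 to 205908 in Hr6b+/+ spermatids. The part of these cells and stages in the spermatid values was not tested.

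**Figure D3:**
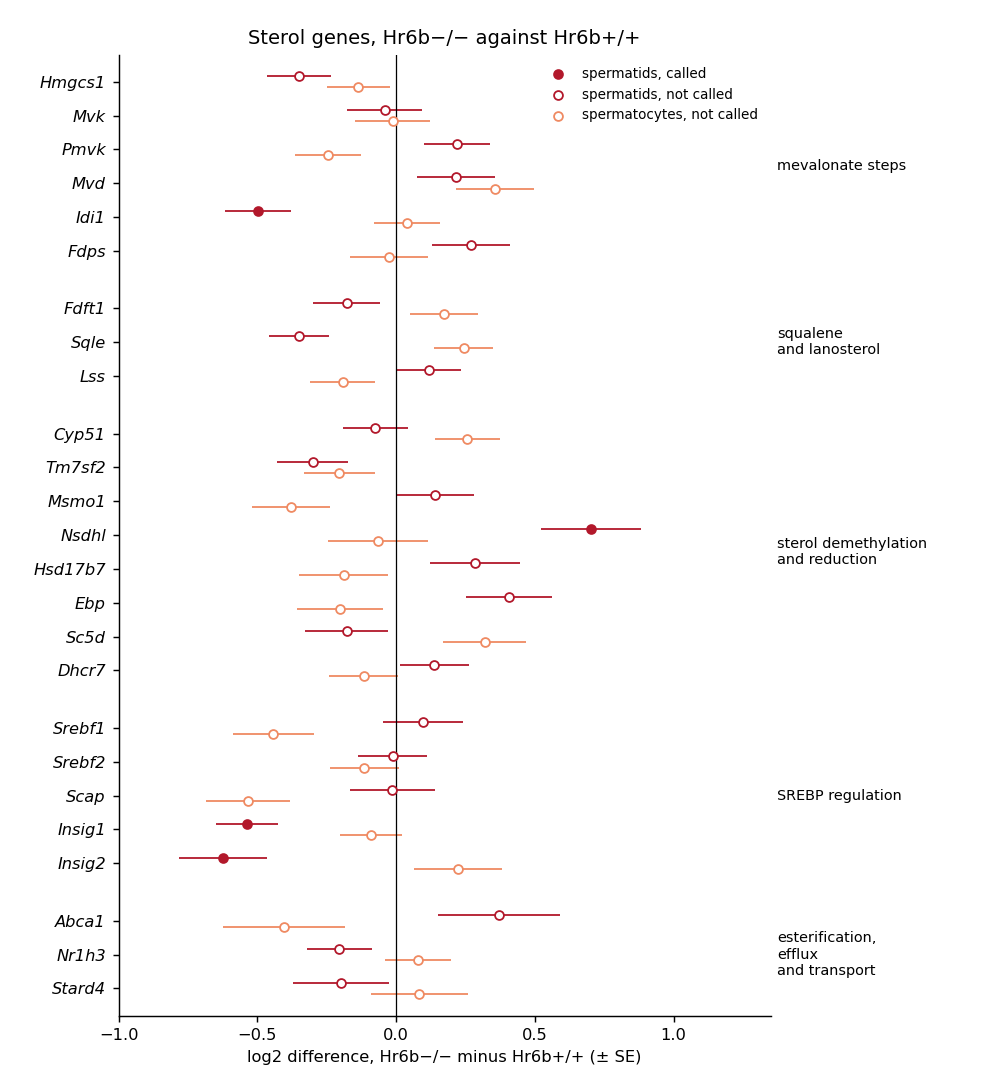
Log2 difference, Hr6b-/- minus Hr6b+/+, for each of the 25 genes grouped by pathway step, in round spermatids (red) and late spermatocytes (orange). Bars are 1 SE of the fit, and the filled points are the 4 called genes, Nsdhl to the right and Idi1, Insig1 and Insig2 to the left, all in spermatids.

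In late spermatocytes none of the 25 genes was called by limma, against 1.59% of all probe sets called in either direction. At an unadjusted p under 0.05 there were 5 genes (20%), against 11% of all probe sets. Among probe sets at a signal of at least 100 on at least 4 arrays the share was 17.3%. The log2 differences ran between -0.53 and 0.36, with a median of -0.09 against -0.01 over all probe sets. Scap was lowest, with a log2 difference of -0.53 (95% confidence interval -0.87 to -0.19, adjusted p = 0.160), followed by Srebf1 (-0.44, adjusted p = 0.235). Mvd was highest at 0.36 (adjusted p = 0.359). Of the genes called in spermatids, Idi1 differed by 0.04, Insig1 by -0.09, Insig2 by 0.22 and Nsdhl by -0.06. None of the 25 was called in any alternative analysis. Transcripts of late spermiogenesis were more abundant in the Hr6b-/- spermatocyte preparations, 14 of 17 measured markers being called higher and none lower, with summed signals of 35854 to 46988 in Hr6b-/- and 13877 to 18118 in Hr6b+/+ spermatocytes. Their part in the sterol gene values of these preparations was not tested.

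Whether the genotype effect itself differed between spermatids and spermatocytes was tested as an interaction. None of the 25 genes was called by limma, against 4.60% of all probe sets in either direction. An unadjusted p under 0.05 was found for 12 (48%), against 22.1% of all probe sets. Among probe sets at a signal of at least 100 on at least 4 arrays that share was 34.9%. The lowest adjusted p-values were those of Sqle (difference of differences -0.59, adjusted p = 0.0548) and Insig2 (-0.85, adjusted p = 0.0615). The differences of differences of the other 3 called genes were 0.77 for Nsdhl (adjusted p = 0.114), -0.54 for Idi1 (adjusted p = 0.0993) and -0.45 for Insig1 (adjusted p = 0.134). With arrays scaled to equal medians, 3 genes (Pmvk, Msmo1 and Nsdhl) were called with a positive difference of differences. Over all probe sets 5.38% were then called positive and 1.31% negative. Of all calls 19.6% were negative, against 68.3% with the deposited scaling. The spermatid calls are thus not shown to be particular to spermatids.

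Several genes have more than 1 probe set, and these did not all report the same stage difference. Of the 22 genes called between stages in Hr6b+/+ mice, 14 had further probe sets of their own, 27 in all. Of these, 11 were called in the same direction, 12 were not called, each of them under 100 on every array, and 4 were called in the opposite direction. Those not called were of Fdps, Fdft1, Lss, Cyp51, Msmo1, Hsd17b7, Sc5d, Scap, Abca1 and Stard4. The opposite calls were 2 probe sets of Insig2 and 1 each of Abca1 and Hmgcs1. That of Hmgcs1 was under 100 on every array, and the other Hmgcs1 probe sets were all called lower. In Hr6b-/- mice, 14 of the 20 called genes had 26 further probe sets, of which 15 were called in the same direction, 7 were not called and 4 were called in the opposite direction, 2 of Abca1 and 1 each of Hmgcs1 and Hsd17b7.

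For Insig2 the disagreement was large. The probe set used above was higher in Hr6b+/+ spermatids by 0.68 (adjusted p = 0.00427), but a second had signals of 612 and 685 in Hr6b-/- spermatids and 1014 and 905 in Hr6b+/+ spermatids, against 2439 and 2474 in Hr6b-/- spermatocytes and 2304 and 2590.3 in Hr6b+/+ spermatocytes, a stage difference of -1.35 in Hr6b+/+ mice. The third gave -1.40. All 3 were lower in Hr6b-/- than in Hr6b+/+ spermatids, so the genotype call was shared while the stage direction was not settled.

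The second probe set of Srebf2 showed a larger stage difference than the one used above and a genotype difference. Its signals were 201 and 189 in Hr6b-/- spermatids and 307 and 350 in Hr6b+/+ spermatids, against 70.4 and 64.1 in Hr6b-/- spermatocytes and 76.5 and 65.4 in Hr6b+/+ spermatocytes. Spermatids were above spermatocytes, and within spermatids both knockout arrays were below both wild type arrays. The log2 difference between stages was 2.21 in Hr6b+/+ mice and 1.54 in Hr6b-/- mice, and that between genotypes in spermatids was -0.75 (adjusted p = 0.0048), where the first probe set gave -0.01. It was called lower in each of 16 alternatives, the other scalings and the arrays left out included, at -0.84 to -0.54. Its difference of differences between the cell types was not called (-0.68, adjusted p = 0.0654). The part of the transcript each probe set reads was not given in the sources used here.

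The dimmest of the 3 Abca1 probe sets, under 100 on every array, had signals of 31.1 and 24.4 in Hr6b-/- spermatids and 15.4 and 14.1 in Hr6b+/+ spermatids, against 11.5 and 11.6 in Hr6b-/- spermatocytes and 10.9 and 10.9 in Hr6b+/+ spermatocytes. It was higher in Hr6b-/- spermatids by a log2 difference of 0.90 (adjusted p = 0.00243), where the brightest gave 0.37 and was not called. This call was kept in each of 15 alternatives, at 0.73 to 1.11. Between the stages of Hr6b-/- mice both dimmer probe sets were higher in spermatids, by 1.25 and 0.66, where the brightest was lower. A second probe set of Sc5d went the same way as the first between the stages of Hr6b+/+ mice, with a larger log2 difference of -2.83, and the third was not called.

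**Figure D4:**
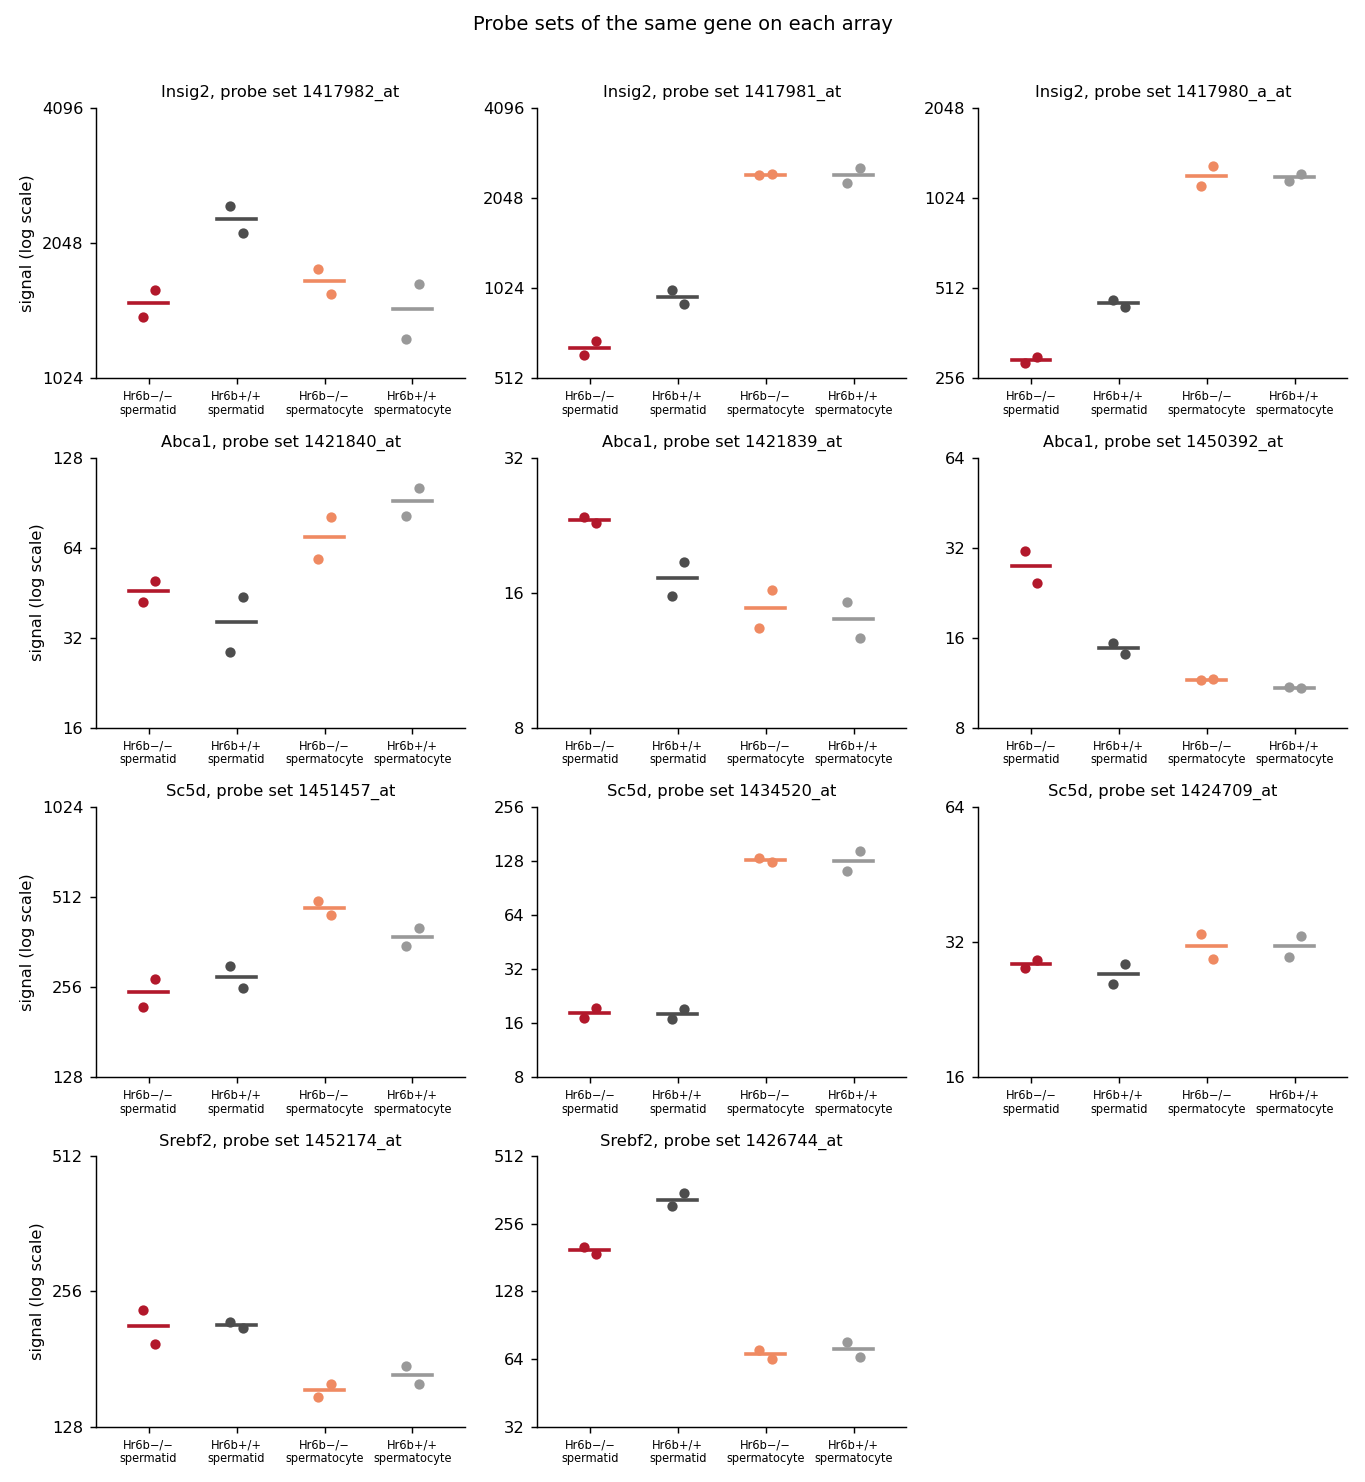
Signal (log axis) on each of the 8 arrays for each probe set of Insig2 (3), Abca1 (3), Sc5d (3) and Srebf2 (2), in the order Hr6b-/- spermatids, Hr6b+/+ spermatids, Hr6b-/- spermatocytes and Hr6b+/+ spermatocytes, with a line at each group mean. In 2 Insig2 probe sets spermatids lie below spermatocytes, in the other Hr6b+/+ spermatids lie above them, and within spermatids Hr6b-/- lies below Hr6b+/+ in all 3.

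Around the pathway, 50 of 59 further genes of sterol uptake, binding, esterification and regulation were measured, 16 of them under 100 on every array. In Hr6b+/+ mice 18 were higher and 18 lower in spermatids than in spermatocytes, against 26.0% and 27.3% of all probe sets. With arrays scaled to equal medians 30 were higher and 16 lower, against 61.3% and 20.8% of all probe sets. The highest differences were those of the lipoprotein receptor Lrp8 (3.12) and the oxysterol-binding protein relatives Osbpl9 (2.80) and Osbpl1a (2.66). The lowest were those of the desaturase Scd2 (-4.33), Osbpl8 (-3.94) and the transporter Abca5 (-3.26). Between genotypes in spermatids, 5 were higher and 9 lower in Hr6b-/- cells, against 4.83% and 9.63% of all probe sets, and under equal medians 10 were higher and 5 lower, against 18.8% and 5.02%. Lipe, the hormone-sensitive lipase that also cleaves cholesteryl esters and is needed for sperm formation in mice, had signals of 2618 and 2536 in Hr6b-/- spermatids, against 1012 and 1080.5 in Hr6b+/+ spermatids, a log2 difference of 1.30 (adjusted p = 0.00096). Stard3nl, a protein of endosome contact sites, was higher by 1.30 (adjusted p = 0.00129) and the lipid-binding protein Fabp5 by 1.65 (adjusted p = 0.00115). Erlin2, which takes part in the INSIG-dependent breakdown of HMG-CoA reductase, was lower by a log2 difference of -0.77 (adjusted p = 0.00243), Lrp8 by -0.73 (adjusted p = 0.0105), and Mbtps1, the protease that makes the first cut in SREBP, by -0.64 (adjusted p = 0.00599). Lrp8 lost its call with quantile scaling (-0.48) and without Hr6b-/- replicate 2 (-0.63) or Hr6b+/+ replicate 2 (-0.54) of the spermatids, and Mbtps1 with its probe sets averaged (-0.27). In spermatocytes none of the 50 was called by limma, against 1.59% of all probe sets. At an unadjusted p under 0.05 there were 7 of the 50, against 11% of all probe sets.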

How the data were processed

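RNA of 4 groups of 2 arrays each was measured on Affymetrix Mouse Genome 430 2.0 arrays, which give no read depth, so the number of arrays limits the precision. The authors deposited log2 values after RMA (background correction, normalisation between arrays and summary per probe set), with limma named in the methods; software versions were not given in the sources used here. Of the deposited rows, 64 control probe sets were left out. Gene names came from the platform annotation: 34945 probe sets had 1 gene, 932 several and 9160 none. X linkage and promoters were taken from RefSeq tables.

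A cell-means model was fitted to 45037 probe sets on 8 arrays with limma 3.58.1 in R 4.3.3 (lmFit, eBayes; 4 residual and 5.85 prior degrees of freedom), with Benjamini-Hochberg adjustment over all probe sets and a threshold of 0.05. Arrays of 2 against 2 allow no exact permutation p under 0.333. The fit was also run on simulated data with independent noise and no shift between arrays. That run checked the working of the fit and not the calls given above. Figures and motif searches used Python 3.11.15, pandas 2.3.3 and matplotlib 3.10.9.

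All listed genes were accounted for. Values on each array were given for genes called between genotypes and for the 8 with the largest wild type stage difference, with a few more chosen after their values were seen. Of the further sterol genes, the 3 most changed called genes in each direction of the genotype and wild type stage comparisons were named. The members, the gene lists and the marker lists were chosen with earlier results of these data known. Alternatives were other scalings, a filter on low signals, an intensity trend, averaging of probe sets, a stricter threshold, a replicate block, fits on 4 arrays, and leaving out each array.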

Additional observations from a re-analysis of the deposited data

Results flagged for a closer look

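In 6 genes or probe sets around the pathway, the test of the difference between the genotype effect in spermatids and that in spermatocytes passed the threshold in limma. They were 1 probe set of a pathway gene that does not represent its gene above, out of 54 probe sets of the pathway, and 5 of 50 further sterol genes, against 4.60% of all probe sets called in this test. With 2 arrays in each group, arrays were not tested for standing apart from their group.

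The fatty acid and retinoid carrier Fabp5 had signals of 91.8 and 124 in Hr6b-/- spermatids and 36.8 and 31.2 in Hr6b+/+ spermatids, against 117 and 126 in Hr6b-/- spermatocytes and 125 and 191 in Hr6b+/+ spermatocytes. Its difference of differences was 2.00 (adjusted p = 0.0101), and the call was lost without Hr6b-/- spermatocyte replicate 1 and at the stricter threshold of 0.01. Sertoli cell transcripts were also higher in Hr6b-/- spermatids, and their part in this value was not tested. Stard3nl had a difference of differences of 1.44 (adjusted p = 0.0142), with signals of 232 and 284 in Hr6b-/- spermatids, against 111 and 98.5 in Hr6b+/+ spermatids. Its call was lost in 4 of 16 alternatives, at the threshold of 0.01 and without Hr6b+/+ spermatid replicate 2, Hr6b-/- spermatocyte replicate 1 or Hr6b-/- spermatocyte replicate 2. Lipe gave 0.95 (adjusted p = 0.0415) and lost the call in 8 of 16 alternatives.

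The dimmest probe set of Abca1 gave 0.82 (adjusted p = 0.0421), at signals under 100 on every array. The SREBP protease gene Mbtps1 gave -0.72 (adjusted p = 0.0403) and Tmem97, a sterol-regulated membrane protein, gave -0.62 (adjusted p = 0.0499). The last 2 lost the call in 14 and 13 of 16 alternatives.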

How the results depend on the processing

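The stage differences of Cyp51, Nsdhl, Fdft1, Sqle, Tm7sf2 and Stard4 kept direction and call in every alternative, as did Insig1 except under the filter on low signals, which removes it. Of 67 single-gene results, 40 kept both in every alternative that tested them. The 4 genes called between genotypes in spermatids became 2 with quantile normalisation, 7 with probe sets averaged per gene, 0 at a threshold of 0.01 and 0 to 4 when 1 array was left out. The interaction, with 0 genes called, gave 3 with equal medians, 2 with the filter on low signals, 3 with an intensity trend, 3 with averaged probe sets and 0 to 1 when 1 array was left out. Between the stages, the filter, which removes low genes, left 8 lower genes in Hr6b+/+ mice and 8 in Hr6b-/- mice. Equal medians gave 12 higher and 7 lower genes in Hr6b-/- mice, against 69.3% and 19.3% of all probe sets. Leaving out 1 array gave 7 to 8 higher and 12 to 14 lower genes in Hr6b+/+ mice, and 6 to 7 higher and 10 to 13 lower in Hr6b-/- mice. The direction turned for Insig2 in Hr6b+/+ mice with averaged probe sets (-0.69), and in Hr6b-/- mice for Idi1 (0.10 with equal medians, 0.081 with cyclic loess), Msmo1 (0.21), Hsd17b7 (0.18) and Abca1 (0.016 with equal medians, 0.44 with averaged probe sets). With a replicate block the counts were 4 genes between genotypes in spermatids, 0 in spermatocytes, 0 in the interaction, 8 higher and 14 lower in Hr6b+/+ mice, and 7 higher and 12 lower in Hr6b-/- mice. Deviations of same-numbered arrays correlated at -0.229 to 0.216 between groups, the labels give no pairing, and no other pairing was tried. Low signals limit Msmo1, Ebp, Dhcr7 and Insig1. Apart from the filter, the cause of these changes was not tested.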
